A study of Arabidopsis thaliana with 4 samples.

Results

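The heat response of larp1 plantlets is the comparison of 1 RNA-seq library of larp1 plantlets held for 15 min at 38 °C with 1 library of larp1 plantlets held for 15 min at 20 °C, 2 of the 4 libraries of the study. The members are all genes of these 2 libraries: of the 25819 genes in the deposited table, the 20477 that reached 50 reads in either library were compared. All plantlets were whole Arabidopsis thaliana seedlings of the Columbia-0 ecotype, 21 days old, grown on agar with sucrose at 20 °C under continuous light and moved into liquid medium for the treatment. The other 2 libraries, WT at 38 °C and WT at 20 °C, were made in the same way. Each library was made from plantlets treated 6 to 8 at a time, and the labels give no allele, line or transgene for the larp1 mutant. Since each group is a single library, nothing here has been checked against replicates. Differences are between libraries, and no p-values are given.

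LARP1 is a La-related RNA-binding protein. Plants meet sudden heat with heat shock factors, transcription factors that bind repeats of GAA and TTC (heat shock elements) upstream of chaperone genes. The chaperones they switch on hold unfolding proteins in solution, refold them or pull aggregates apart, while many transcripts of growth and photosynthesis are lost or held back from translation.

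Levels are in RPM: each library's read numbers are brought to a common total, and a gene's level is the sum of its distinct exon entries. RPM is not divided by gene length, so levels of different genes are not compared. Depth, estimated from the spacing of low values, was 44931528 reads in the larp1 38 °C library and 74420029 in the larp1 20 °C library, where 1 read was worth 0.0223 and 0.0134 RPM. The WT 38 °C and WT 20 °C libraries had 42608667 and 46065440 reads. Calls required a change of 2-fold or more and a 95% counting interval that does not include equal levels. Bracketed ranges are these intervals and cover counting error only. Arabidopsis has 3 LARP1 genes, and the labels do not say which is mutated. LARP1A (AT5G21160) had 9.29 RPM in larp1 and 33.1 RPM in WT at 38 °C, and 9.21 RPM in larp1 and 37.1 RPM in WT at 20 °C. It was the only one of the 3 below WT at both temperatures by more than 2-fold, and it was not at 0.

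Of the 20477 genes compared, 857 (4.19%) were higher and 4053 (19.8%) were lower in the larp1 38 °C library than in the larp1 20 °C library. The minimum of 50 reads admitted some genes through 1 library alone, and these could be called in 1 direction only. Through the 38 °C library alone came 209 genes, of which 206 were called higher. Through the deeper 20 °C library alone came 2074 genes, of which 1249 were called lower. Fewer genes were higher than lower, and their changes were larger. At least 8-fold changes were seen in 306 genes upward and 118 downward, at least 64-fold changes in 61 upward and 1 downward. The genes called higher made up 28.6% of the summed gene values at 38 °C and 3.66% at 20 °C. The 10 genes with the largest gains in RPM held 37.3% of the summed gain of called genes, and the 50 largest held 75.6%. Losses were spread more evenly, with 13.0% of the summed loss of called genes in the 10 largest. The median log2 fold change of all genes compared was -0.43. TMM and median-of-ratios scaling move every log2 fold change up by 0.41 and 0.43; the counts are then 1279 higher and 1977 lower, and 1307 higher and 1943 lower. Of all calls, 39.3% and 40.2% were upward under these scalings and 17.45% with RPM, so medians of gene groups are read here against the median of all genes.

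**Figure D1:**
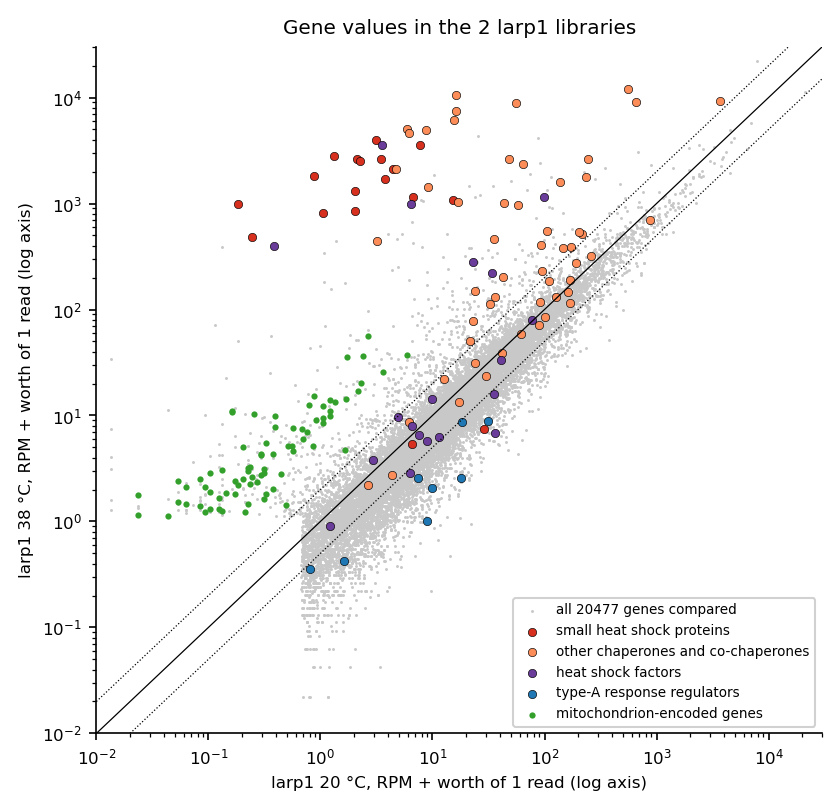
Gene values in the larp1 38 °C library (vertical axis) against the larp1 20 °C library (horizontal axis), in RPM plus the worth of 1 read, on log axes; each point is 1 of the 20477 genes compared, the solid line marks equal values and the dotted lines 2-fold. Small heat shock proteins, other chaperones and some heat shock factors lie far above the line, mitochondrion-encoded genes lie above it at low levels, and type-A response regulators lie below it.

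The upstream sequences of the strongest responders are shown first, because they can be read for heat shock elements. Windows of 250 bases before the annotated gene start were read from the RefSeq TAIR10.1 assembly for 20276 of the genes compared. The full heat shock element searched was the block GAA, any 2 bases, the block TTC, any 2 bases and the block GAA again, on both strands. Among the 20 genes with the highest fold (among those with at least 100 reads in either library), 5 windows held it, and 3 of those 5 overlapped no neighbouring gene. These 3 are printed with the element in capitals, followed by HSP22-ER, the gene with the highest fold, whose window holds no full element. All are written 5′ to 3′ on the strand of the gene, and the last base lies next to the gene start.
AT1G71000: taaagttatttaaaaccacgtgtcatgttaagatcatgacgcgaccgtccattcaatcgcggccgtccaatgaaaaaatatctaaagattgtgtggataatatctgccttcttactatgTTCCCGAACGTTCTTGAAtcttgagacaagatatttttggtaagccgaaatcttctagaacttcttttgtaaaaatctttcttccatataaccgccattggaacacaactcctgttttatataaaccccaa
HSFA7B: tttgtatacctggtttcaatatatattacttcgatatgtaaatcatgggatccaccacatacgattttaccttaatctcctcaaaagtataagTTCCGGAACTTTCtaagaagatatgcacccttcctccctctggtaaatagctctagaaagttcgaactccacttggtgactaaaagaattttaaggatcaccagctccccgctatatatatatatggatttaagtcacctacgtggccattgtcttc
HSP17.4-CI: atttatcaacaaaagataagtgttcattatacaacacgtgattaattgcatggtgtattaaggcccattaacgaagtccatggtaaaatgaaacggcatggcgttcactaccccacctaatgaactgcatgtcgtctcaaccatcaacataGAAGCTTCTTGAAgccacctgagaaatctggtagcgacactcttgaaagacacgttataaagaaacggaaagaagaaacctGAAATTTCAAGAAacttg
HSP22-ER: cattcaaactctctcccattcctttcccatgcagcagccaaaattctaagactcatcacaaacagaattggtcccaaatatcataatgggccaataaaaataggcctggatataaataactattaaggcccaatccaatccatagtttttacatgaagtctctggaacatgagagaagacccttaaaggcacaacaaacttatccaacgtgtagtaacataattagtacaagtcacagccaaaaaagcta
AT1G71000, a DnaJ-type co-chaperone, lies on the minus strand and its window is chr1:26770178-26770427, with 2 overlapping elements that start 131 and 126 bases before the gene. HSFA7B (AT3G63350), a heat shock factor, has chr3:23398986-23399235 on the plus strand, with 1 element 157 bases upstream. HSP17.4-CI (AT3G46230), a cytosolic small heat shock protein, has chr3:16984868-16985117 on the minus strand, with elements 99 and 18 bases upstream. HSP22-ER (AT4G10250), the small heat shock protein of the endoplasmic reticulum, has chr4:6370088-6370337 on the plus strand.

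Full elements stood upstream of 6 of the 57 genes that were at least 64-fold higher (10.5%), and of 6 of 184 genes 8-fold to 64-fold higher (3.26%). They stood upstream of 4 of 144 genes 4-fold to 8-fold higher (2.78%) and 5 of 385 genes 2-fold to 4-fold higher (1.30%). Among genes not called the share was 52 of 15477 (0.336%), among genes called lower 12 of 4029 (0.298%), and over all windows 0.419%. Of windows that overlapped no other gene, 3.02% of those of called-higher genes and 0.354% of all held the element. A pair of adjacent blocks, GAA then TTC or TTC then GAA with 2 bases between, lies within each full element and was found in 23.64% of windows of called-higher genes and 15.9% of all windows. Shares of CGCGTT, searched on both strands, were 3.25% and 2.94% in the same order. For CCGAC they were 15.8% and 13.0%, and for CACGTG 10.1% and 7.33%. A match is a description of letters and not a bound site, and most strongly raised genes held no full element in this window.

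**Figure D2:**
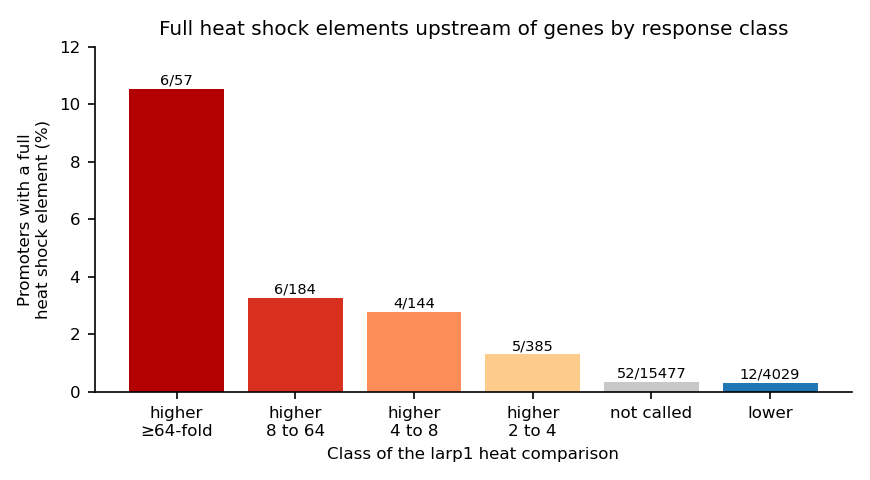
Share of upstream windows of 250 bases that hold a full heat shock element on either strand (vertical axis, percent) by class of the larp1 heat comparison (horizontal axis); the labels give windows with the element over all windows. The share is 10.5% in the class at least 64-fold higher and 0.336% in genes not called.

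Of 21 heat shock factors listed, 19 were compared, of which 6 were higher (31.6%) and 3 lower (15.8%), beside 4.19% and 19.8% of all genes; the list median was 0.27 on the log2 scale. HSFA2 (AT2G26150), the factor that prolongs acquired thermotolerance, had 3548 RPM at 38 °C and 3.51 RPM at 20 °C in larp1, a log2 fold change of 9.98 [9.81, 10.16]. HSFA7B stood at 395.9 and 0.37 RPM at 38 °C and 20 °C (log2 fold change 10.01), and HSFA7A (AT3G51910) at 980.4 and 6.41 RPM (7.25). The class B factors, which mostly act as repressors, followed with HSFB2B (AT4G11660) at 3.60, HSFB1 (AT4G36990) at 3.55 and HSFB2A (AT5G62020) at 2.69 on the log2 scale. The HSFA1 factors, which start the response and act before new transcripts are made, did not share this. HSFA1A (AT4G17750) was lower, with 2.87 RPM at 38 °C and 6.29 RPM at 20 °C, while HSFA1B, HSFA1D and HSFA1E were not called, with log2 fold changes of -0.88, 0.51 and 0.97. HSFC1 (AT3G24520), at 6.81 and 36.3 RPM, and HSFA8 (AT1G67970), at 15.9 and 35.6 RPM, were lower too; with TMM or median-of-ratios scaling HSFA8 and HSFA1A lost their calls and HSFA1E was called higher. Entries of HSFB1 and HSFC1 carry the name of an overlapping locus, and use of strand is not stated, so their reads may be shared; the same holds for HSP101, CLPB3, HSP17.4-CI, GOLS1, GOLS4, EGY3 and DREB19 below.

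Coregulators of the heat response were higher in 6 (60%) and lower in 0 of the 10 compared, beside 4.19% and 19.8% of all genes. MBF1C (AT3G24500), a coactivator needed for basal thermotolerance, had 4352 RPM at 38 °C and 25.6 RPM at 20 °C in larp1. Its paralogs MBF1A and MBF1B were not called and had log2 fold changes of -0.01 and 0.06. HSA32 (AT4G21320), a protein that sustains acquired thermotolerance, stood at 180.9 and 1.06 RPM, and DREB2A (AT5G05410), a transcription factor of drought and heat, at 1626 and 49.98 RPM. BOBBER1 (AT5G53400), a small chaperone of development, had 160.3 and 20.0 RPM, and DREB2C and DREB2B had log2 fold changes of 1.38 and 1.12. HSBP, which binds heat shock factors and ends their activity, and DPB3-1 were not called, at -0.28 and -0.24. Every gene called in this list had a higher RPM at 38 °C than at 20 °C in both genotypes.

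Small heat shock proteins, the holdases of the cytosol and organelles, had the highest median of the chaperone lists. Of 19 listed, 18 were compared, and 16 of these were higher (88.9%) and 1 lower (5.56%), beside 4.19% and 19.8% of all genes. The list median was 9.46 on the log2 scale. Together the 19 made up 3.48% [3.47, 3.49] of the summed reads at 38 °C and 0.0108% [0.0106, 0.0111] at 20 °C. HSP22-ER stood at 986.4 RPM at 38 °C, against 0.17 RPM (13 reads) at 20 °C, a log2 fold change of 12.39 [11.69, 13.37]. That interval is wide because only these 13 reads were present at 20 °C. HSP21 (AT4G27670), the plastid form, stood at 483.9 and 0.23 RPM, and the mitochondrial forms HSP23.6-MTI (AT4G25200) and HSP23.5-MTI (AT5G51440) at 1713 and 3.78 RPM and at 1160.5 and 6.73 RPM. Cytosolic class I members were higher by 8.69 (HSP18.2-CI) to 11.07 (HSP17.6C-CI, AT1G53540), and the class II members HSP17.6-CII and HSP17.7-CII by 11.04 and 10.13. HSP17.8-CI (AT1G07400) held the most reads of the list, with 3945 RPM at 38 °C and 3.12 RPM at 20 °C. The lowest rise among those called was that of HSP18.5 (AT2G19310), at 1083 and 15.2 RPM. HSP21.7, at 5.36 and 6.51 RPM, was not called, and HSP15.4 (AT4G21870) was lower, at 7.48 and 28.5 RPM, a log2 fold change of -1.93. HSP14.7 had too few reads to be compared. Class I members are close in sequence, so single values may share reads.

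Among the large chaperones, the Clp group was higher in 3 (50%) and lower in 0 of 6, beside 4.19% and 19.8% of all genes. HSP101 (AT1G74310), the disaggregase needed to survive severe heat, had 10666 RPM at 38 °C and 16.1 RPM at 20 °C, a log2 fold change of 9.37 [9.29, 9.46]. Its organelle relatives CLPB4 (AT2G25140) of mitochondria and CLPB3 (AT5G15450) of plastids had 5.93 and 5.22, while CLPC1, CLPC2 and ERD1, Clp ATPases that feed a protease, were not called, at -0.31, -0.26 and 0.52. In the HSP90 family 6 of 7 were higher (85.7%) and 0 lower. HSP90.1 (AT5G52640), the heat-inducible cytosolic form, stood at 7425 and 16.4 RPM, HSP90.2 (AT5G56030) at 11943 and 552.5 RPM, HSP90.3 at 2644 and 245.5 RPM and HSP90.4 at 130.5 and 35.9 RPM. HSP90.2, HSP90.3 and HSP90.4 are near-identical, and no source used here says how reads that match several of them were divided. The mitochondrial HSP90.6 and plastid HSP90.5 had log2 fold changes of 1.77 and 1.29, and HSP90.7, the form of the endoplasmic reticulum, was not called at 0.16.

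HSP70 proteins, which bind and release unfolded stretches, were higher in 12 (70.6%) and lower in 0 of the 17 compared. Of all genes 4.19% were higher and 19.8% lower. HSP70-5 (AT1G16030) had 5032 RPM at 38 °C and 5.93 RPM at 20 °C, HSP70T-2 (AT2G32120) had 4585 and 6.13 RPM, and HSP70-4 (AT3G12580) had 8914 and 55.7 RPM. The cognate genes, abundant without heat, moved less: HSC70-3 (AT3G09440) stood at 9021 and 651.9 RPM and HSC70-1 (AT5G02500) at 9266 and 3693 RPM, a log2 fold change of 1.33. Of the mitochondrial members, mtHSC70-2 (AT5G09590) was higher at 5.78 and mtHSC70-1 was not called at -0.17. Both plastid members were higher, cpHSC70-2 at 1.39 and cpHSC70-1 at 1.27. Of the binding proteins of the endoplasmic reticulum BIP1 (AT5G28540) was higher at 1.16, and BIP2 and BIP3 were not called at 0.76 and -0.27, though BIP2 was called higher with TMM and median-of-ratios scaling.

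Co-chaperones, which pass clients between HSP70 and HSP90 or set their cycles, were higher in 10 and lower in 0 of 16. HOP3 (AT4G12400), the adaptor between HSP70 and HSP90, had 4906 RPM at 38 °C and 8.67 RPM at 20 °C, BAG6 (AT2G46240), a stress-induced partner of HSP70, had 6077 and 15.6 RPM, and ROF2 (AT5G48570), a peptidyl-prolyl isomerase, had 2131 and 4.67 RPM. FES1A, a nucleotide exchange partner of HSP70, had a log2 fold change of 7.28, SGT1A had 4.07, and the DnaJ proteins J3 and J2 had 2.93 and 2.13. Close paralogs were not called: HOP1 had -0.35, SGT1B -0.09 and P23-1 -0.31. Chaperonins, the barrel-shaped folding machines of organelles, were higher in 4 of 9, with CPN60B2 (AT3G13470) at 3.72 and HSP60 (AT3G23990) at 2.65, whereas CPN60B1, another plastid subunit, had -0.54 and was not called. Among all 98 compared genes described as DnaJ proteins 12 were higher (12.2%) and 14 lower (14.3%), beside 4.19% and 19.8% of all genes. AT1G71000 led them, at 384.8 RPM at 38 °C and 0.12 RPM (9 reads) at 20 °C, a log2 fold change of 11.49 [10.71, 12.77].

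**Figure D3:**
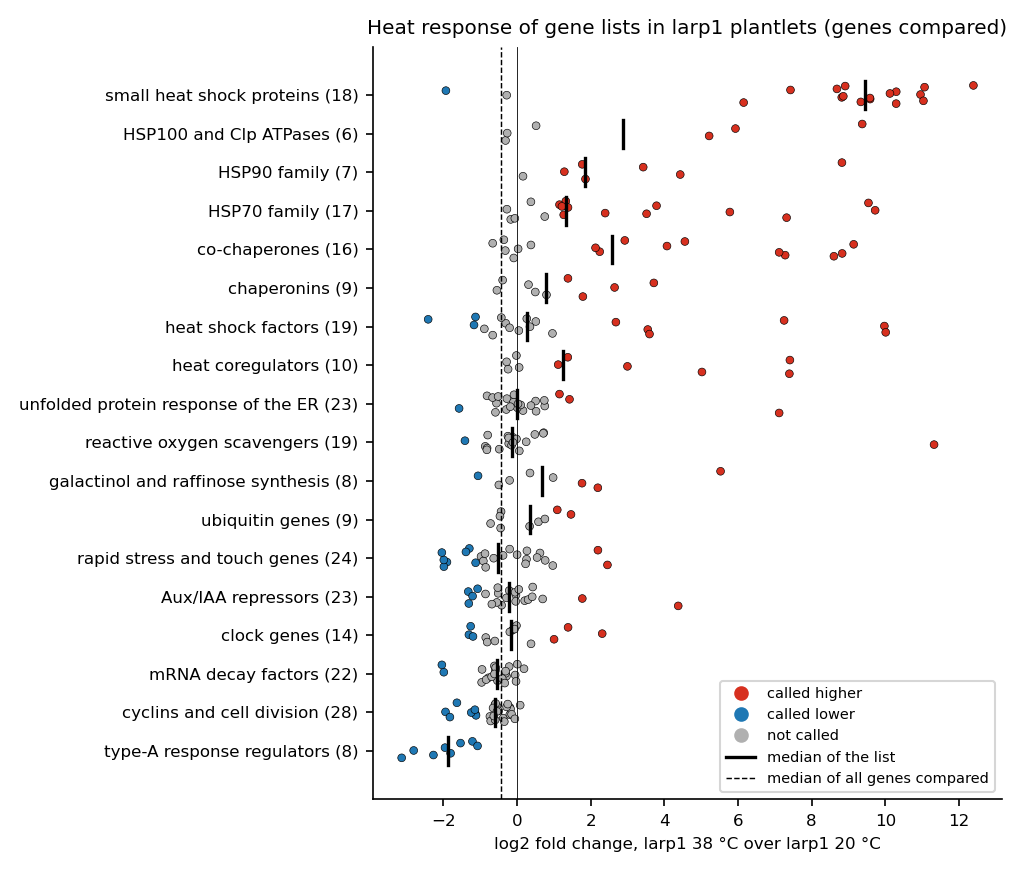
Log2 fold change of larp1 38 °C over larp1 20 °C (horizontal axis) for every gene compared in 18 lists (rows, with the number of genes compared); red, blue and grey points are genes called higher, called lower and not called, the bar is the median of the list and the dashed line the median of all genes, -0.43. The small heat shock proteins reach 12.39, and all 8 type-A response regulators lie at -1.07 or lower.

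In the unfolded protein response of the endoplasmic reticulum 3 of 23 were higher (13.0%) and 1 lower (4.35%), beside 4.19% and 19.8% of all genes. The list median was 0.01, and BIP1 and ERDJ3A are counted in the lists above as well. NAC103, a transcription factor of the pathway, was the lower one at -1.57. ERDJ3A (AT3G08970), a DnaJ protein of that compartment, stood at 442.6 and 3.17 RPM, and BZIP28 (AT3G10800), the membrane-bound sensor, at 170.2 and 63.3 RPM, while BZIP60, the other bZIP factor of the pathway, had -0.18 and was not called. Calnexins, calreticulins and disulfide isomerases were not called. With TMM and median-of-ratios scaling 5 of the 23 were higher, BIP2 and the disulfide isomerase PDI10 among them. Among scavengers of reactive oxygen only APX2 (AT3G09640), a cytosolic ascorbate peroxidase, was higher of the 19 compared with RPM (3 with TMM and median-of-ratios scaling), with 1548 reads at 38 °C (34.5 RPM) and 0 reads at 20 °C. Against the floor of 3 reads it was at least 855-fold higher. CSD2, a plastid superoxide dismutase, was lower at -1.41, a call lost with TMM and median-of-ratios scaling. APX1, another cytosolic peroxidase, and the catalase CAT1 were not called, at 0.73 and 0.06, though APX1 was called higher with both of those scalings.

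Galactinol synthase 1, GOLS1 (AT2G47180), the first step toward raffinose, had 1216 RPM at 38 °C and 26.3 RPM at 20 °C, a log2 fold change of 5.53. GOLS4 and GOLS2 were higher at 2.20 and 1.77, GOLS3 was lower at -1.06, and of the raffinose synthases RS6 had 0.98, just under the 2-fold line. With TMM and median-of-ratios scaling GOLS3 was not called and RS6 was higher. Of 9 polyubiquitin genes compared 2 were higher (22.2%, beside 4.19% of all genes) and 0 lower. UBQ10 (AT4G05320) had the largest gain in RPM of the called nuclear genes, 21995 RPM at 38 °C and 7950 RPM at 20 °C, a log2 fold change of 1.47, and UBQ3 had 1.10. UBQ11, at 3295 and 2595 RPM, was not called. Polyubiquitin genes are made of repeats, so reads may be split between them.

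Beyond these lists, strongly raised genes included several with no chaperone role in their description. AT5G53680, an RNA-binding protein, had 333 reads at 38 °C and 0 at 20 °C, at least 184-fold higher. AT5G07330, of unknown function, had 71.8 RPM at 38 °C and 0.10 RPM at 20 °C. AT1G03070, of the Bax inhibitor family, stood at 442.1 and 1.35 RPM. EGY3 (AT1G17870), a plastid protease homolog, stood at 1082 and 7.93 RPM, and the RING proteins AT1G26800, AT5G47610 and AT1G14200 had log2 fold changes of 7.01, 6.75 and 6.56. Among genes of large gain in RPM, AT3G10020, of unknown function, stood at 4154 and 87.6 RPM, and the glutathione transferases GSTF8 (AT2G47730) and GSTU5 (AT2G29450) at 3039 and 681.0 RPM and at 2186 and 344.4 RPM. SR45a (AT1G07350), a splicing regulator, stood at 1461 and 34.5 RPM. The 10 largest gains in RPM among called nuclear genes were those of UBQ10, HSP90.2, HSP101, HSP70-4, HSC70-3, HSP90.1, BAG6, HSC70-1, HSP70-5 and HOP3, all chaperone genes or their partners except UBQ10.

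Among called nuclear genes, the 10 largest losses in RPM were those of CAB3, LHCB3, GAPA-2, PYK10, MTO3, EXO70H7, AT1G72600, UCP5, GER1 and RBCS1B. GER1 and AT1G72600 overlap and may share reads. CAB1 (AT1G29930), another light-harvesting protein, and RBCS1A (AT1G67090), a small subunit of Rubisco, lost more RPM than CAB3 but less than 2-fold and were not called, with 11220 and 21123 RPM and with 3281 and 6487 RPM. CAB3 (AT1G29910), a light-harvesting protein, had 1940 RPM at 38 °C and 4508 RPM at 20 °C in larp1, and 3781 and 4828 RPM in WT. Its log2 fold change was -1.22 in larp1 and -0.35 in WT, and the difference between the genotypes was under 2-fold. LHCB3 (AT5G54270), of the same complex, had 1020 and 2231 RPM in larp1 and 1796 and 2419 RPM in WT. GAPA-2 (AT1G12900), a Calvin cycle enzyme, stood at 533.8 and 1391 RPM in larp1. Over 53 photosystem and light-harvesting genes the sum was 53485 RPM at 38 °C and 81761 RPM at 20 °C in larp1, and 76315 and 86842 RPM in WT. Only CAB3, LHCB3 and AT3G05410 were called lower in larp1 (5.66%, beside 19.8% of all genes), and 0 were in WT. The median log2 fold change of the 53 in larp1 was -0.52, which is 0.09 below that of all genes. CAB and LHCB genes are near-identical, and the nuclease used against ribosomal RNA can also lower abundant transcripts; the part of either in these values was not tested. CAB3, LHCB3, GAPA-2, PYK10, MTO3 and RBCS1B lost their calls with TMM and median-of-ratios scaling. PYK10 (AT3G09260), the root beta-glucosidase, stood at 513.7 and 1224 RPM, and MTO3 (AT3G17390), which makes S-adenosylmethionine, at 519.8 and 1113 RPM; both carry entries of an overlapping locus. Exon entries of PYK10 went in opposite directions, with log2 fold changes from -1.36 to 1.84 over 9 entries. UCP5 (AT2G22500) and DIC2 (AT4G24570), mitochondrial dicarboxylate carriers, stood at 219.1 and 723.8 RPM and at 51.1 and 377.5 RPM. CYP83B1 (AT4G31500), of indole glucosinolate synthesis, stood at 99.1 and 505.1 RPM, and MYB34 (AT5G60890), a regulator of that pathway, at 15.0 and 92.1 RPM.

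The deepest falls were in genes of low level. MYB24 (AT5G40350), a stamen transcription factor, had 1 read at 38 °C and 253 reads at 20 °C, lower by a factor between 27.2 and 6057 by its counting interval. OFP16 (AT2G32100), an ovate-family repressor, had 9 and 728 reads, a log2 fold change of -5.46 [-6.74, -4.68], and AT3G45840 had 1 and 136 reads. AIF1 (AT3G05800), a bHLH-type partner of brassinosteroid signalling, was better covered, with 47 reads at 38 °C and 1317 at 20 °C, a log2 fold change of -4.05. Of the 20 lowest genes 4 encode C1 domain proteins with cysteine- and histidine-rich zinc folds, AT3G45840, AT1G61840, AT2G02630 and AT3G13760. MYB24, which the deposited table describes as other RNA, and AT3G10910 carry entries of an overlapping locus.

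Some gene families stood well below the median of all genes. Among 66 compared C1 domain genes 47 were lower and only 1 higher; their median of -1.57 on the log2 scale was 1.13 below that of all genes. Core histone genes were lower in 25 and higher in 0 of 38 (median -1.46), SAUR genes of auxin-driven growth lower in 30 and higher in 6 of 50 (median -1.47), and mTERF genes, regulators of organelle transcription, lower in 18 and higher in 0 of 27 (median -1.33). Pentatricopeptide repeat genes, whose proteins process organelle RNA, were lower in 128 of 237 (median -1.08), class III peroxidases in 25 of 49 (median -1.02), and UDP-glycosyltransferases in 48 of 98 (median -0.96). Against these, genes described as ribosomal proteins were lower in 15 of 296 (median -0.48) and RRM proteins in 9 of 93 (median -0.25), or 5.07% and 9.68% beside 19.8% of all genes. Under TMM scaling the lower counts were 36 C1 domain, 20 histone, 26 SAUR, 11 mTERF and 89 pentatricopeptide repeat genes. The counts of class III peroxidases and UDP-glycosyltransferases dropped to 9 of 49 and 24 of 98. Over all genes the lower count was then 1977. The SAUR genes that were higher included SAUR19, SAUR22 and SAUR23, at log2 fold changes of 1.62, 1.55 and 1.59, and CRR4 (AT2G45350), a plastid RNA editing factor, was one of the 2 higher pentatricopeptide repeat genes, with 8.57 RPM at 38 °C and 0.67 RPM at 20 °C.

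Most of these families hold many genes with a single exon entry, 52 of 66 C1 domain, 169 of 237 pentatricopeptide repeat and 47 of 50 SAUR genes among them, whereas class III peroxidases hold 2 of 49. Genes with fewer entries were called more often in both directions. The share called higher was 6.56% of nuclear genes with 1 distinct entry and 2.03% with 16 or more. Of 3415 nuclear genes with 1 distinct entry, 43.4% were lower, against 26.2% with 2 to 3 entries, 15.6% with 4 to 7, 7.52% with 8 to 15 and 1.71% with 16 or more. At each of the 5 levels at 20 °C the share was higher for single-entry genes: 48.3% and 25.5% at 1 to 3 RPM, 42.7% and 11.98% at 10 to 30 RPM, and 23.2% and 10.3% at 100 RPM or more, for 1 entry and over 1 entry. Among single-entry genes alone, 78.8% of C1 domain, 84.2% of histone, 83.3% of mTERF, 60.9% of pentatricopeptide repeat and 57.4% of SAUR genes were lower, all above the 43.4% of single-entry genes. F-box genes with 1 entry, at 30.6%, and RING or U-box genes, at 38.3%, were below it. Whether the number of entries itself moves these shares was not tested.

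**Figure D4:**
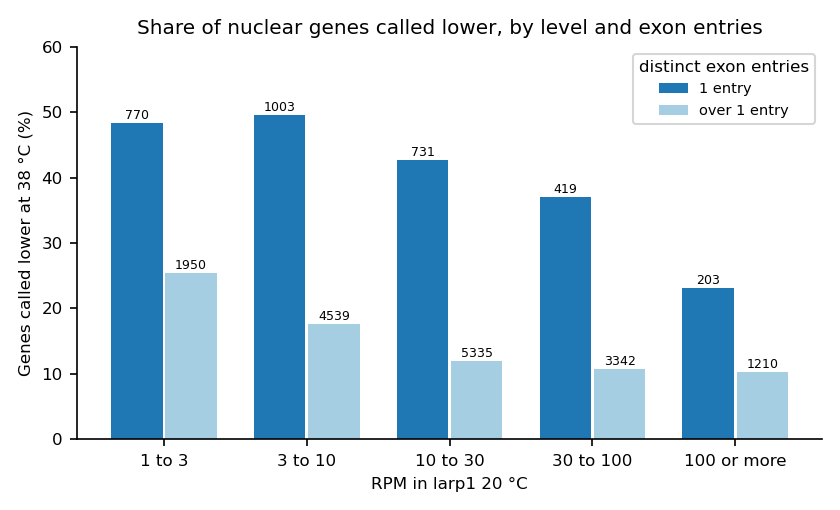
Share of nuclear genes called lower in larp1 at 38 °C (vertical axis, percent) by their RPM in the larp1 20 °C library (horizontal axis), for genes with 1 distinct exon entry (dark bars) and over 1 (light bars); the labels give genes compared. The dark bar is higher at each level, from 48.3% against 25.5% at 1 to 3 RPM to 23.2% against 10.3% at 100 RPM or more.

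All 8 compared type-A response regulators, the rapid negative feedback genes of cytokinin, were lower, with a median of -1.88, and 6 of them were lower with TMM and median-of-ratios scaling too. ARR6 (AT5G62920) had 0.99 RPM at 38 °C and 8.84 RPM at 20 °C, ARR7 (AT1G19050) had 2.57 and 18.1 RPM, and ARR4 (AT1G10470) had 8.92 and 31.1 RPM. ARR15 and ARR17 had too few reads to be compared. Of 23 Aux/IAA repressors of auxin signalling 2 were higher (8.70%) and 4 lower (17.39%), beside 4.19% and 19.8% of all genes. IAA29 (AT4G32280) stood at 16.1 and 0.76 RPM, a log2 fold change of 4.38 [4.02, 4.84], and IAA3 and IAA4 were lower at -1.32 and -1.31; 0 of this list were lower with TMM or median-of-ratios scaling. Cyclins and cell division genes were lower in 7 and higher in 0 of 28, and the lower share of 25% was near the 19.8% of all genes. CYCA3;1 at -1.94 and CYCD5;1 at -1.82 were the lowest of the list, of which 3 were lower with TMM scaling. The list median of -0.58 was 0.15 below that of all genes.

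Rapid stress and touch genes, many with short-lived mRNAs, were higher in 2 and lower in 7 of 24. These shares were 8.33% and 29.2%, beside 4.19% and 19.8% of all genes. With TMM and median-of-ratios scaling 5 were higher and 4 lower. The list median of -0.50 was 0.07 below that of all genes. The zinc finger factors ZAT6 (AT5G04340) and ZAT12 (AT5G59820) stood at 301.9 and 54.95 RPM and at 451.6 and 98.3 RPM at 38 °C and 20 °C. CBF1 and CBF3, factors of the cold response, were lower at -1.90 and -1.98, and CBF2 was not called at 0.00. WRKY40 stood at 125.6 and 327.9 RPM and the calmodulin-like TCH2 at 100.4 and 245.8 RPM, but neither was called lower with TMM or median-of-ratios scaling. Of 22 mRNA decay factors 2 were lower (9.09%, beside 19.8% of all genes) and 0 higher. Both lower genes encode deadenylase subunits and have 1 exon entry: CAF1A (AT3G44260) at 109.0 and 431.3 RPM, and CAF1B (AT5G22250) at 17.5 and 71.8 RPM. XRN4, the cytoplasmic exonuclease, had a log2 fold change of 0.01, DCP2, the decapping enzyme, 0.19, and PAB2, a poly(A)-binding protein, -0.05, and none of these was called. Clock genes were higher in 3 and lower in 3 of 14 (21.4% each), and the lower share was near the 19.8% of all genes: RVE1, PRR7 and PRR9 had 2.32, 1.39 and 1.01, and PRR5, CHE and ELF4 had -1.30, -1.26 and -1.19, and these 3 lost their calls with both scalings.

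Organelle-encoded genes are part of the counts over all genes given above. Of the 20350 nuclear genes alone, 773 (3.80%) were higher and 4053 (19.9%) were lower. Nuclear is meant by locus name only, and reads that match both a nuclear and an organelle locus were not set apart. Whether mitochondrial reads add to raised chromosome 2 loci was not tested. Such loci include AT2G07771 and AT2G07722, with log2 fold changes of 6.88 and 6.75. Of 143 mitochondrion-encoded genes 76 were compared and all 76 were higher, but only 23 had 50 reads at 20 °C; the others passed through the 38 °C library alone and so had to differ. Those 23 had a median log2 fold change of 3.19. The sum over all 143 was 591.3 RPM at 38 °C and 52.2 RPM at 20 °C in larp1, and 503.9 and 40.4 RPM in WT. Chloroplast-encoded genes were higher in 8 and lower in 0 of 51, with a sum of 249.8 RPM at 38 °C and 206.9 RPM at 20 °C. Most organelle transcripts lack long poly(A) tails and the sources used here do not say how the cDNA was primed, so these values describe the libraries only.

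The other LARP1 genes were compared as well. LARP1B (AT5G66100) had 28.3 RPM at 38 °C and 13.4 RPM at 20 °C in larp1, a ratio of 2.11 [1.94, 2.29] that was called higher, and 22.3 and 14.4 RPM in WT, where it was not called. LARP1C (AT4G35890) stood at 28.3 and 44.4 RPM in larp1 and was not called there, while in WT it was called lower.

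Set beside WT, whose libraries are separate, most calls were shared. Of the 802 genes called higher in larp1 and compared in both genotypes, 700 (87.3%) were also called higher in WT, which is 84.8% of the 825 WT calls. Of 3672 called lower in larp1, 3123 (85.0%) were also called lower in WT, which is 64.8% of the 4818 WT calls. Of all genes compared in WT, 4.26% were higher and 25% lower. The 51 chaperone genes called higher in larp1 were chosen by their larp1 fold, a choice that favours low values in the larp1 20 °C library. For these genes the heated libraries were nearly level: the ratio of larp1 to WT at 38 °C lay between 0.876 and 1.32 with a median of 0.981, and 50 of 51 lay between 0.8 and its reciprocal, BIP1 being the exception. At 20 °C the ratio ran from 0.225 to 7.56 with a median of 0.741, and 29 lay below 0.8, 19 between 0.8 and its reciprocal and 3 above (HSP23.6-MTI, HSP17.4-CI and HSP17.6C-CI). The median difference of log2 fold change, larp1 minus WT, was 0.41 for the 51 and 0.10 for all genes. HSP90.1 had the lowest ratio at 20 °C, at 16.4 RPM in larp1 and 72.9 RPM in WT, with 7425 and 7393 RPM at 38 °C. HSFA2 had the same shape, at 3548 RPM in larp1 and 3677 RPM in WT at 38 °C, and 3.51 and 20.5 RPM at 20 °C. HSP23.6-MTI had the opposite one, at 3.78 RPM in larp1 and 0.50 RPM in WT at 20 °C, and 1713 and 1666 RPM at 38 °C. The sum of the 51 was 14.9% of gene values in larp1 and 15.1% in WT at 38 °C, and 0.850% in larp1 and 1.43% in WT at 20 °C.

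**Figure D5:**
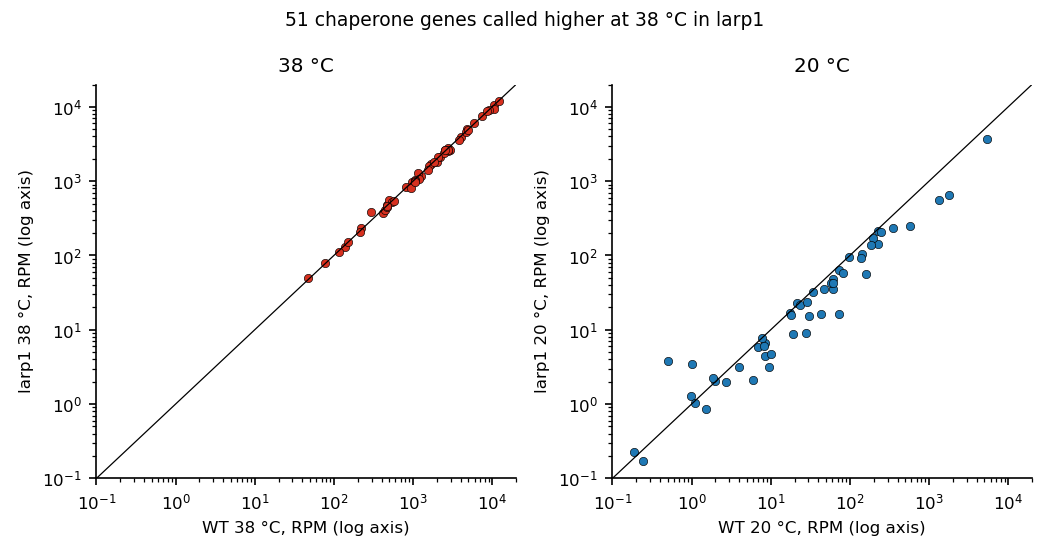
RPM of the 51 chaperone genes called higher in larp1, with larp1 on the vertical and WT on the horizontal axis (log axes), at 38 °C (left) and 20 °C (right); the line marks equal values. At 38 °C the points follow the line with a median ratio of 0.981, and at 20 °C most lie below it with a median ratio of 0.741.

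Across all 19350 genes compared in both genotypes, the ratio of 38 °C to 20 °C in larp1 was at least 2-fold above that in WT in 400 genes (2.07%). It was at least 2-fold below that in WT in 128 genes (0.661%), and both counts are past the counting interval. A ratio above that of WT can be a larger rise or a smaller fall in larp1, so these counts do not say which genotype responded more. MC8 (AT1G16420), a metacaspase, was not called in larp1, with 8.83 RPM at 38 °C and 8.06 RPM at 20 °C, while WT had 0.21 and 3.71 RPM. DREB19 (AT2G38340) was not called in larp1, at 17.2 and 13.4 RPM, and stood at 7.51 and 1.22 RPM in WT. These differences rest on 4 single libraries.

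The authors' deposited table of genes up in larp1 only lists 147 distinct genes. Of these 138 were compared in larp1 and 129 were called higher there by the rule used here, and 14 were called higher in WT and 3 lower. The authors' folds come from the same libraries, so shared calls are no separate check. The 10 with the highest fold in the authors' deposited table, from 14.3 to 114, included 6 mitochondrion-encoded genes, and all 10 had at most 1.49 RPM at 38 °C in larp1. In WT the same 10 stood between 0.66 and 0.94 RPM at 38 °C and at 0.2 RPM or less at 20 °C, with too few reads to be compared. In larp1, AT5G51105, ATMG00010 and ATMG01290 had too few reads as well. The first of them, ATMG01150, stood at 1.14 and 0.01 RPM in larp1 and at 0.70 and 0.07 RPM in WT, at 38 °C and 20 °C.

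Exon entries of a gene mostly moved together. Among 7801 genes with at least 3 entries of 100 reads or more, the median spread of the log2 fold change between entries was 0.44, and 525 genes (6.73%) spread by 1 or more. The widest was MBF1C, where 1 entry had 3.65 RPM at 38 °C and 6.42 RPM at 20 °C, while the other 3 had log2 fold changes of 7.79 to 8.01. AT5G52650, a ribosomal protein S10 gene, held 2 entries with 0.09 and 0.01 RPM at 20 °C and at least 5.39 RPM at 38 °C, while its other 3 had log2 fold changes between -0.52 and -0.14. In AT1G09130 and SDH3-1 1 entry each had 0 reads at 20 °C and 2.29 RPM at 38 °C, while most others changed less than 2-fold. In AT2G46230, whose table also names ABIL1, an entry with 0 reads at 20 °C stood at 2.67 RPM at 38 °C. AT5G52650, SDH3-1 (AT5G09600) and AT2G46230 have locus numbers next to those of the strongly raised HSP90.1, mtHSC70-2 and BAG6. Whether reads of such neighbours add to these entries was not tested. Entries have no coordinates in the table, so introns, alternative exons and overlapping or neighbouring genes cannot be told apart.

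At least 50 reads were found for 11 of 12 root markers and for each leaf, guard cell and vasculature marker, but for 0 of 5 flower markers. Root markers were higher in 1 and lower in 6 of 11 compared (9.09% and 54.5%, beside 4.19% and 19.8% of all genes). Their summed level was 88.5 RPM at 38 °C and 142.7 RPM at 20 °C in larp1, and 80.7 and 143.4 RPM in WT. SCR stood at 9.51 and 27.2 RPM and SHR at 3.96 and 10.1 RPM in larp1 (4 markers were lower with TMM scaling, SHR not among them), while WOX5, of the root stem cell niche, stood at 3.05 and 0.62 RPM. Leaf mesophyll markers summed to 10433 RPM at 38 °C and 17585 RPM at 20 °C in larp1, and 15595 and 20591 RPM in WT, guard cell markers to 12.3 and 20.6 RPM in larp1, and flower markers to 0.14 and 0.28 RPM. Fewer cells of a type and less RNA per cell cannot be told apart in such bulk samples, and the part of tissue makeup in the values above was not tested.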

How the data were processed

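RNA of 4 pools of plantlets was sequenced by a service laboratory, per the labels' protocols, after removal of ribosomal RNA with a duplex-specific nuclease, as single reads of 100 bp. The submitters' processing notes list BWA 0.5.9 and TAIR10. No source used here gives the counting tool or says whether strand was used, so genes that overlap or are near-identical are uncertain. In the main deposited table each exon entry has a signal, headed RPM per the file headers, which the authors rounded to 2 decimals. The table holds 181379 entries, of which 132172 are distinct within their gene. The deposited gene lists hold a ratio (fold) of 38 °C over 20 °C per the file headers and the values. The larp1 20 °C column carries a suffix that is not explained.

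Gene values are sums of distinct entries. The worth of 1 read was estimated from the spacing of low values; since rounding is coarse against it, reads served only for the minimum of 50 and for counting intervals from a conditional binomial distribution. Entries of alternative exons can overlap and share reads, which makes the intervals too narrow, and PCR copies are not independent. The worth of 1 read was added to each RPM before taking log2 ratios, which understates the change of genes with few reads. Genes at 0 reads have a bound at 3 reads. The planned design assumed counts; no count model was fitted. Calls were tested on simulated reads without rounding, reads shared between entries, PCR copies or differences between pools. That test does not cover these sources of error.

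The members and lists were chosen with earlier results of these data known. The rule for named genes took the 3 LARP1 genes; among called nuclear genes, the 20 highest and 20 lowest by fold with at least 100 reads, the 10 largest gains and losses, up to 4 members of each list with the largest change and its most abundant member, lists of up to 12 compared in full, the 5 largest differences from WT in each direction, the first 10 genes that the authors list as up in larp1 alone, and the 5 genes of widest spread between entries. Other list members, genes outside the lists and the families, which were formed from the words of the table's descriptions, were named after their values were seen. Symbols came from RefSeq tables of TAIR10.1, which matched 25408 genes; upstream windows came from the same assembly, and 6441 of them overlap another gene. In 1816 genes an entry names another locus. The alternatives tried were scaling by TMM or median of ratios, totals without organelle genes or the 100 highest genes, other minimums, a pseudocount of 0.5 RPM, a 3-fold threshold and other sums of entries. Software was matplotlib 3.10.9, scipy 1.17.1, pandas 2.3.3, numpy 2.4.6 and Python 3.11.15. Genes of the lists that had no value in the table were not analysed here.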

Additional observations from a re-analysis of the deposited data

Results flagged for a closer look

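3 genes were called higher after heat in larp1 and lower after heat in WT, and the difference was not tested, since each group is 1 library. LTI65 (AT5G52300), a late embryogenesis gene of dehydration, had a log2 fold change of 1.61 in larp1 and -1.53 in WT. Its levels in larp1 were 13.7 RPM at 38 °C and 4.47 RPM at 20 °C, and in WT 1.36 and 3.97 RPM. NATA1 (AT2G39030), an acetyltransferase, had 1.59 in larp1 and -1.23 in WT, at 7.75 and 2.57 RPM in larp1 and 3.57 and 8.40 RPM in WT. AT2G43620, a chitinase family gene, had 1.75 in larp1 and -1.02 in WT, at 7.85 and 2.33 RPM in larp1 and 6.03 and 12.3 RPM in WT. The genotypes differed more at 38 °C for LTI65, and more at 20 °C for AT2G43620 and NATA1.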

How the results depend on the processing

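The count of 857 higher genes was 1307 with median-of-ratios scaling and 570 with a 3-fold threshold, and lay between 787 and 1279 under the other alternatives. The count of 4053 lower genes was 1977 with TMM scaling, 1943 with median-of-ratios scaling and 1450 with a 3-fold threshold, and lay between 3025 and 4659 under the other alternatives. TMM and median-of-ratios scaling add a constant to every log2 fold change, so they can only add higher calls and remove lower ones. Of the 173 genes named in the text that were recomputed with TMM scaling, 18 lost their call, 5 gained one and 0 changed sign while called, and the same numbers held for median-of-ratios scaling. The pseudocount of 0.5 RPM ended the calls of GOLS3, NAC103 and PRR9 among them. Shares of reads in the 4 heat shock protein groups, as shares of nuclear genes alone, stayed inside their counting intervals. No paired analysis was possible because each group holds 1 library, and no replicate could be left out. The intervals cover counting error only; differences between pools of plantlets, and genes under 50 reads in both libraries, are beyond these data.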
